A study of Mus musculus with 2 samples.

Results

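Chromatin remodelling and histone-modifying enzymes were examined in spinal cord microglia sorted from mice of an atopic diathesis model (1 array, titled activated) and from control mice (1 array, titled normal). Members were chosen by gene name on the array: the histone deacetylases (Hdac), sirtuins (Sirt), lysine demethylases (Kdm), lysine acetyltransferases (Kat), arginine methyltransferases (Prmt), SET domain methyltransferases (Setd), the Chd and Smarc remodellers, and Ezh1, Ezh2, Eed, Suz12, Ep300, Crebbp and Epc1. Kdm5d was left out, and no probe carried the name Kansl2. This gave 87 of the 34797 gene names on the array, covered by 139 of its 55681 probes. The labels do not give how the model was made, the strain, sex or age of the mice, the markers used for sorting, or how many animals a sample holds. Each group is a single array, so no difference could be set against replicates, no test can be made, and all values describe these 2 samples.

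Histone-modifying enzymes add or remove small chemical groups on the tails of histones. Acetyl groups are placed by acetyltransferases and loosen chromatin, and they are taken off by the zinc-dependent histone deacetylases and by the NAD-dependent sirtuins. Methyl groups are written by SET domain and arginine methyltransferases, including the Polycomb repressive complex PRC2, and erased by lysine demethylases. The Chd and Smarc proteins belong to machines that use ATP to slide or evict nucleosomes. In macrophages and microglia such enzymes are known to set which inflammatory genes can be switched on.

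All values are array signals in fluorescence units, and a gene is called measured if 1 or more of its probes stood well above background on each array. Log2 differences are atopic diathesis minus control, taken relative to the median of the 9204 measured genes, and folds derive from them. That median lay at -0.03 before this step, so the signals of both arrays can be read side by side. Error could be taken only from probes printed repeatedly on an array. Over 101 such probes, log2 differences had a spot SD of 0.20, or ±0.40 as a 95% interval. Variation of animals, sorting and RNA amplification is not in it. In sorted bulk RNA, fewer cells of a type and less RNA per cell cannot be told apart. Signals of different genes come from different probes and are not compared as levels.

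The 10 fixed microglia markers, P2ry12 and Cx3cr1 among them, were measured on both arrays and lay within 2-fold, with a median log2 difference of -0.09. Markers of T cells, B cells and neutrophils (0 of 3 each) and the monocyte marker Ccr2 stayed at background. Of the astrocyte list 2 of 5 were measured and 1 was seen in atopic diathesis only, with summed signals of 1013 in atopic diathesis and 803 in control microglia and with Aqp4 and Aldh1l1 at background. Of the oligodendrocyte list 2 of 5 were measured and 2 seen in atopic diathesis only, both with bounds of at least 2-fold (summed 1026 in atopic diathesis and 898 in control), of the neuron list Snap25 alone (84046 and 82179 for the list in the same order), and of the endothelial list 0 of 3, with 1 seen in atopic diathesis only and 1 in control only (140 and 338). Of the mast cell list 1 of 3 markers passed in atopic diathesis microglia only (summed signal 68.0, against 13.6 in control), and Mki67 alone of the 4 proliferation markers was measured, with a log2 difference of 1.64. The part of such cells in the results below was not tested.

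Several members are read by more than 1 probe, and their probes gave different answers, so the sequences behind those readings are shown with those of some members that differed most. Each line gives the first 30 of the 60 bases of a probe, in the sense of the transcript, from the array files (mm9).
Hdac1, chr4:129193746-129193775, minus strand: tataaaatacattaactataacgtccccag
Hdac1, chr4:129193557-129193586, minus strand: tgttaaactttttaggaggggtctgggtct
Hdac1, chr4:129193404-129193433, minus strand: gtggaggttgatagcctagcttcctttttg
Kdm2a, chr19:4318167-4318196, minus strand: tccaggtgggggaaacagaagactggttga
Kdm2a, chr19:4316200-4316229, minus strand: aaagaaatagcctccaatgggaaatatttt
Smarce1, chr11:99071377-99071406, minus strand: ccagaagacgagaagaaggagtaaatgttg
Smarce1, chr11:99070465-99070494, minus strand: gtcttagagactagaaacaagatagtttgt
Kat2b, chr17:53811093-53811122, plus strand: caccagtgtctatgtgaacatttcccattt
Setd2, chr9:110520924-110520953, plus strand: ctttgtgaggatagtataaattctcctgca
Kdm5c, chrX:148708245-148708274, plus strand: atctcctttcctcctcctgggttcatgctg
Exon and UTR annotation of mm9 was not used here, so the position of these probes within the transcripts is given only as their distance from one another.

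Of the 87 members, 45 were measured on both arrays (51.7%, against 26.5% of all gene names). A further 14 were well above background in atopic diathesis microglia only, 4 in control microglia only, and 24 on neither array (27.6%, against 61.1% of all gene names). Names with 1 probe seen only in atopic diathesis and another only in control, and none on both, made up 0 members and 0.267% of all gene names. Among the 45, 10 were at least 2-fold higher in atopic diathesis microglia, or 22.2%, where 17.3% of all measured genes were. At least 2-fold lower were 8, or 17.8%, against 15.6% of all measured genes. Both shares were near those of the array as a whole, the median member lay at 0.10, and 17 of the 45 were within the spot interval of ±0.40 (37.8%, against 37.1% of all measured genes). Past 2-fold either way were 40% of the members, against 32.9% of all measured genes. The split between higher and lower depended on scaling: by the 75th percentile of all probes it was 8 higher to 11 lower, with the median of all genes at -0.50, and by quantile normalization 8 to 10, with that median at -0.17. Differences are read here relative to the median gene. The inner limits of the called members were 1.04 for the pseudogene Smarca5-ps and -1.07 for Ezh1, and the outermost members within 2-fold were Ep300 at 0.83 and Eed at -0.92.

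**Figure D1:**
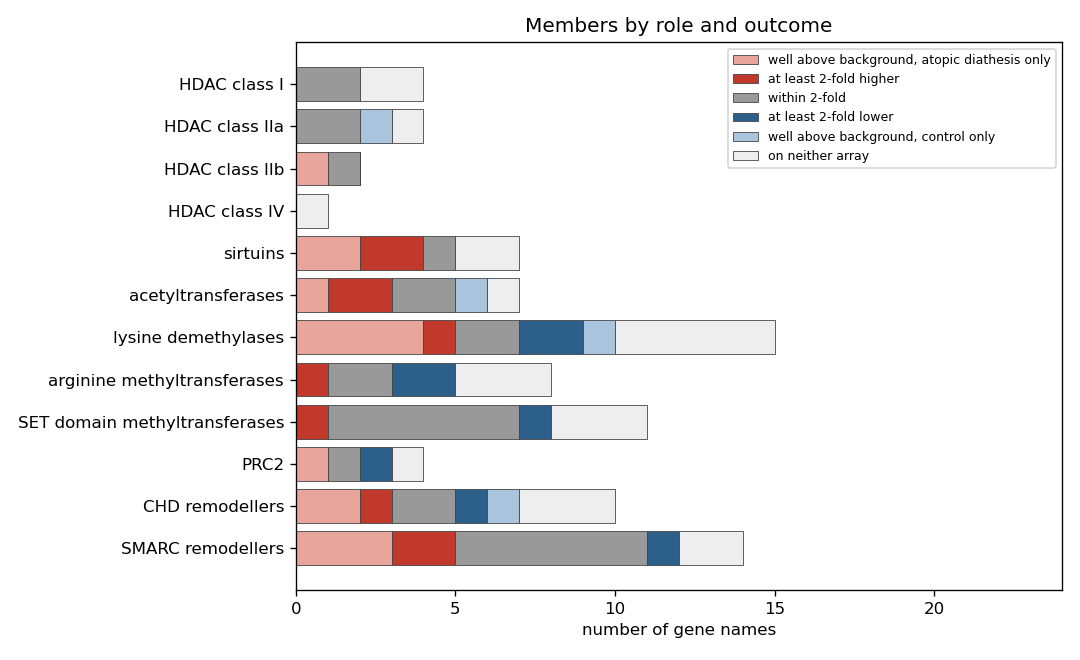
Number of member gene names in each role class (bars, from 0) by outcome: well above background in atopic diathesis only, at least 2-fold higher, within 2-fold, at least 2-fold lower, well above background in control only, or on neither array. The acetyltransferase bar includes the scaffold subunit Epc1. The sirtuin bar holds 2 higher members and 2 seen in atopic diathesis only and no lower one, against 17.3% of measured genes higher and 8.06% of gene names seen in atopic diathesis only. Of all gene names 61.1% were on neither array, against 2 of the 7 sirtuins. No zinc-dependent deacetylase measured on both arrays is past 2-fold at this scaling, where 32.9% of all measured genes are, and Hdac1 is in 3 of 8 alternatives. Of the 11 deacetylases, 1 (Hdac10, bound 26.8-fold) was seen in atopic diathesis only, against 8.06% of all gene names. Another 1 (Hdac5, bound 2.82-fold) was seen in control only, against 4.15%.

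Acetyltransferases, the writers of histone acetylation, had 2 of 4 measured members at least 2-fold higher and 0 lower, against 17.3% and 15.6% of all measured genes. Kat2b, Kat5 and Ep300 lay in quintile 2 of mean signal (1 is the dimmest). There 46% of all measured genes were past 2-fold either way. Kat2a was seen in control microglia only. Epc1, counted in this class though a scaffold subunit rather than a writer, was seen in atopic diathesis microglia only. Kat2b, also known as PCAF, a coactivator that acetylates histone H3, had a signal of 251 in atopic diathesis microglia and 33.5 in control microglia, 7.64-fold higher. Its log2 difference of 2.93 was 1.71 with normexp, a background correction that shrinks differences of dim probes. Kat5, the catalytic subunit of the TIP60 complex, had 145 in atopic diathesis microglia and 30.5 in control microglia, 4.85-fold higher. Its other probe stood above background on neither array. Both control signals are not far above 19.8, the dimmest signal that passed as well above background there.

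The paired coactivators Ep300 and Crebbp, which acetylate histones at enhancers, were within 2-fold. Crebbp read 12165 in atopic diathesis and 11582 in control microglia on its bright probe (log2 difference 0.10), while a second Crebbp probe, made from another transcript record, read 4.39 in atopic diathesis and 114 in control microglia. Ep300 read 128 in atopic diathesis and 73.4 in control microglia (0.83). Kat2a, known as GCN5 and the close relative of Kat2b, was on the other side, seen with both probes in control microglia alone. Its brighter probe gave 10.3 in atopic diathesis and 71.3 in control microglia, at least 3.50-fold lower (1.65-fold with normexp), and its other probe 19.0 and 45.04 in the same order. With probes seen on 1 array let in, Crebbp averaged -2.46, past 2-fold lower.

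Epc1, a scaffold subunit of the TIP60 (NuA4) complex, was seen in the atopic diathesis sample alone. Its brightest probe read 1503 in atopic diathesis and 18.1 in control microglia, at least 77.8-fold higher, and a second probe read 54.9 and 4.80 in the same order. The remaining probe stayed at background on both arrays. The bound rests on the brightest probe, and with normexp background correction it was 18.7-fold.

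Zinc-dependent deacetylases, the erasers of acetylation, had 0 of 5 measured members past 2-fold, where 32.9% of all measured genes were. However, Hdac1 passed it in 3 of 8 alternatives, and Hdac10 and Hdac5, seen on 1 array each, had bounds past 2-fold. Hdac7, a class IIa enzyme that acts with corepressors, had 1522 in atopic diathesis and 1381 in control microglia. Hdac9 of the same class had 338 and 369 in that order, and Hdac6, a mainly cytoplasmic deacetylase of tubulin, 165 and 198. These log2 differences were 0.17, -0.09 and -0.23, each inside the spot interval. Hdac3, the enzyme of the NCoR and SMRT corepressor complexes, had 127 in atopic diathesis and 91.4 in control microglia (0.50).

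Hdac1, a class I enzyme of the Sin3, NuRD and CoREST complexes, averaged -0.60, but its probes did not give one answer. The probe nearest the transcript's start read 65.9 in atopic diathesis and 231 in control microglia, with a log2 difference of -1.78. The probe 189 bases further along read 17.6 in atopic diathesis microglia, not well above background, and 240.3 in control microglia. The probe another 153 bases on read 111 in atopic diathesis and 76.3 in control microglia, a log2 difference of 0.57. All carry the same transcript accession, and their opening bases are printed above. Hdac1 was past 2-fold lower with the brightest probe (-1.78), with probes seen on 1 array let in (-1.83) and when the 75th percentile of all probes set the scale (-1.10).

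Hdac2, the partner of Hdac1, was printed as 10 spots per array and was above background in none of them: the spots ran from 5.16 to 18.1 (median 10.8) in atopic diathesis microglia and from 5.56 to 19.3 (median 10.4) in control microglia. Hdac4, Hdac8 and Hdac11 were also on neither array. Hdac10, a class IIb enzyme that acts on polyamines, was seen in atopic diathesis microglia only, at 518 against 11.02 in control microglia, at least 26.8-fold higher (7.24-fold with normexp). Its second probe, on the same transcript, gave 42.6 and 9.25 in the same order. Hdac5, of class IIa, was seen in control microglia only, at 8.06 in atopic diathesis and 57.4 in control microglia, at least 2.82-fold lower (1.54-fold with normexp).

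Of the 7 sirtuins, the NAD-dependent deacylases, 2 of the 3 measured were at least 2-fold higher in atopic diathesis microglia, 2 more were seen there only, and 0 were lower past 2-fold or seen in control only. Over the whole array 17.3% of measured genes were higher and 8.06% of names were seen in atopic diathesis only. Of all names 61.1% were on neither array, against 2 of the 7 sirtuins, so the shares of names have unlike bases. Sirt6 and Sirt7 lay in quintile 2 of mean signal (1 is the dimmest), where 46% of all measured genes were past 2-fold either way. Sirt6, a nuclear sirtuin that deacetylates histone H3 and restrains NF-kappaB target genes, had 193 in atopic diathesis and 39.2 in control microglia, 5.03-fold higher. Its second probe, 320 bases further along the transcript, gave 224 and 19.7 in the same order, with the control spot not well above background. Sirt7, the nucleolar sirtuin, averaged 139 in atopic diathesis and 41.9 in control microglia, 3.39-fold higher. This rested on one probe at 535 and 65.9 (log2 difference 3.05) and another at 35.9 and 26.6 (0.47).

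Sirt1, the best known nuclear sirtuin, which deacetylates histones and the NF-kappaB subunit RelA, was seen in atopic diathesis microglia only, at 238 against 5.41 in control microglia, at least 12.3-fold higher. Sirt4, of the mitochondria, was likewise seen there only, at 112 against 4.85 and at least 5.78-fold higher, while its second probe was above background on neither array. Sirt2, a mostly cytoplasmic sirtuin, had 474 in atopic diathesis and 473 in control microglia, a log2 difference of 0.03. Sirt3 and Sirt5, both mitochondrial, were on neither array. With normexp the bounds of Sirt1 and Sirt4 were 3.33- and 2.02-fold, and Sirt6 and Sirt7 stayed past 2-fold in 8 of 8 alternatives that gave them a value. Several of these alternatives reuse the same signals and shift only the centre, so they are not separate checks.

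The stretches before the starts of 3 sirtuin genes are printed because Sirt1 and Sirt6 read higher in atopic diathesis microglia and Sirt2 within the spot interval. Each is the 250 bases before the gene's start, from RefSeq on GRCm38.p6, with GC boxes (GGGCGG on either strand) in capitals.
Sirt1, chr10:63339036-63339285, minus strand: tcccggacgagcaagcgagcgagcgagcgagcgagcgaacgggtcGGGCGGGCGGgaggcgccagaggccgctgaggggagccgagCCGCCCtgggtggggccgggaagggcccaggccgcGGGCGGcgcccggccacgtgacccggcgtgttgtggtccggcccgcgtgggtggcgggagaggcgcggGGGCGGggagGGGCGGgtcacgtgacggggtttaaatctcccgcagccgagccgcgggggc
Sirt6, chr10:81627567-81627816, minus strand: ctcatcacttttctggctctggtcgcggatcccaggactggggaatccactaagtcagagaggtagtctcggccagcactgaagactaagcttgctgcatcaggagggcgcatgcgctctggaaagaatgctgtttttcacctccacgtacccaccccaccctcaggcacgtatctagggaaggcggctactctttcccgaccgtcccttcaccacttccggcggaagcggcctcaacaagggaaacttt
Sirt2, chr7:28766502-28766751, plus strand: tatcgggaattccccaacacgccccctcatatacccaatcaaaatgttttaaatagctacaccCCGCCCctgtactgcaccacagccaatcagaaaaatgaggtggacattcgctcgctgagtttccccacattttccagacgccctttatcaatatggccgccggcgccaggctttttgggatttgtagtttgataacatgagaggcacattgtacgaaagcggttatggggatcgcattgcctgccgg
The Sirt1 window held 6 GC boxes, some of which overlap, the Sirt6 window 0 and the Sirt2 window 1. E-boxes (CACGTG, which reads the same on either strand) numbered 2, 0 and 0, and CCAAT boxes (CCAAT on either strand) 0, 0 and 2. A sequence was found for 70 of the 87 members. A GC box stood in 60% of these windows, against 56.9% of 4398 windows of measured genes and 32.9% of 27025 windows of all genes. CCAAT boxes stood in 41.4% of member windows, against 36.6% for measured genes and 34.5% for all genes, and E-boxes in 7.14%, against 8.57% and 6.05%. The median GC content was 60%, against 59.6% and 52%. These shares are descriptions and were not tested.

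**Figure D2:**
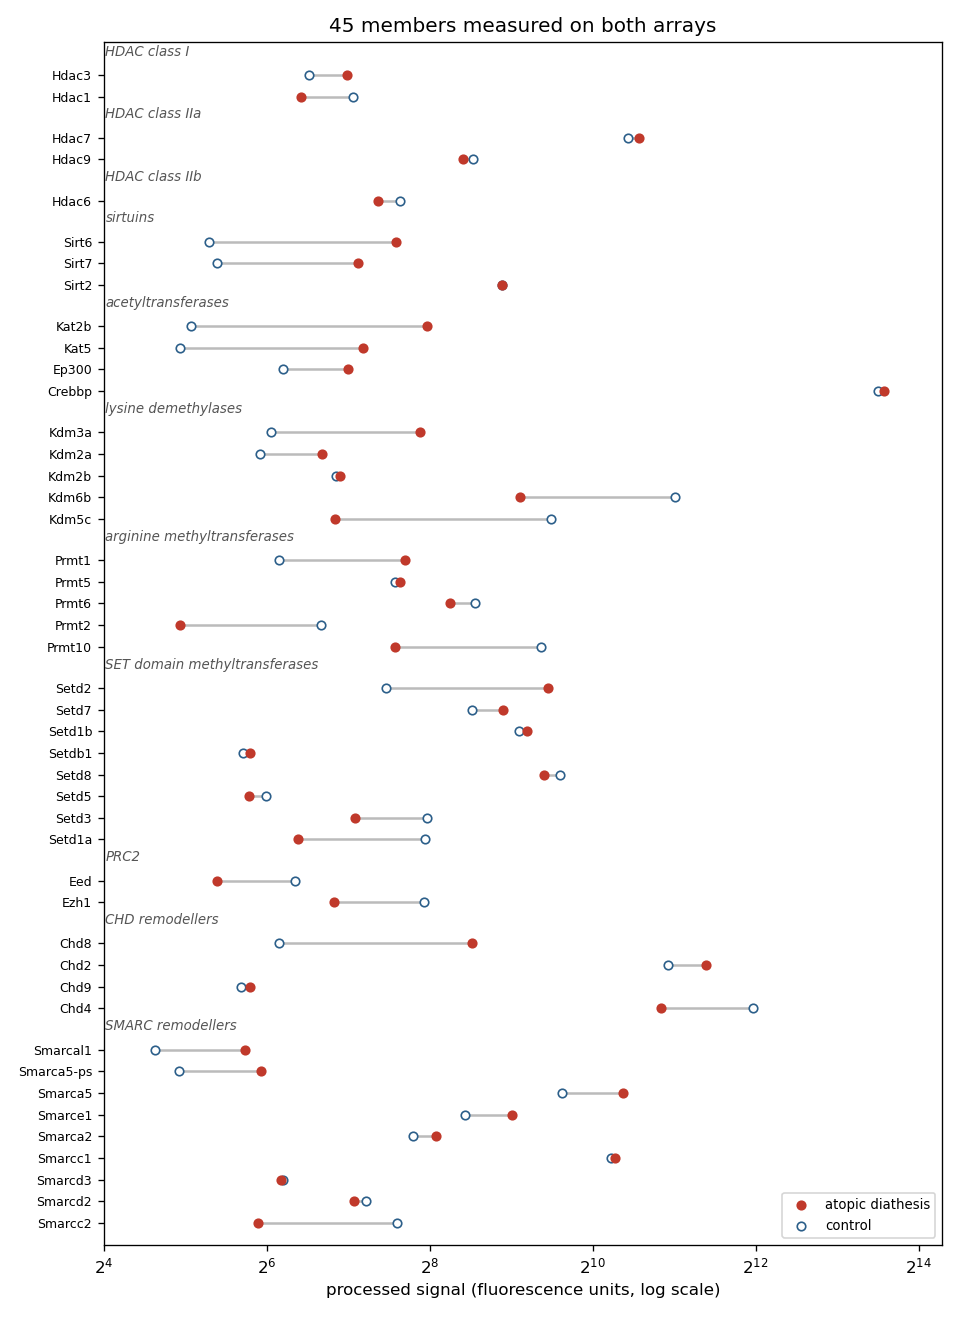
Processed signal (horizontal axis, log scale, fluorescence units) of the 45 members measured on both arrays, grouped by role, with filled points for atopic diathesis and open points for control, 1 array each. Kat2b, Sirt6, Chd8, Kat5 and Setd2 show the widest gaps with atopic diathesis to the right, and Kdm5c and Kdm6b the widest with atopic diathesis to the left.

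Arginine methyltransferases had 5 measured members, 1 higher and 2 lower (20% and 40%, against 17.3% and 15.6% of all measured genes). Prmt1, which makes most of the asymmetric dimethylarginine in cells, had 208 in atopic diathesis and 71.2 in control microglia, 2.98-fold higher, but its second probe was on neither array and with normexp its log2 difference was below 1 (0.89). Prmt10, which RefSeq now names Prmt9, had 190 in atopic diathesis and 659 in control microglia, 3.39-fold lower. Prmt2 had 30.5 and 101 in the same order, 3.25-fold lower, with an atopic diathesis signal not far above 19.9, the dimmest that passed there, and with normexp it was inside 2-fold (-0.86). Prmt5, the main symmetric dimethylating enzyme, read 199.5 in atopic diathesis and 191 in control microglia, and Prmt6 305 and 377, both inside the spot interval. Prmt3, Prmt7 and Prmt8 were on neither array.

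Setd2, the enzyme that trimethylates histone H3 along transcribed gene bodies, was read by 1 probe printed as 10 spots on each array. Repeated spots narrow only the spot error, and no second probe checks the value. The spots ran from 651 to 719 (median 707) in atopic diathesis microglia and from 164 to 192 (median 177) in control microglia. The spot ranges lie far apart, and the mean was 4.06-fold higher in atopic diathesis microglia. These spots share 1 RNA sample per group and are not biological replicates.

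The other measured SET domain genes stayed within 2-fold with 1 exception. With Setd2 counted, 25% of the 8 measured were past 2-fold, against 32.9% of all measured genes. Setd1a, a catalytic subunit of the COMPASS complex that methylates histone H3 at promoters, was the exception, with 83.4 in atopic diathesis and 246 in control microglia, 2.88-fold lower. Its partner in function Setd1b read 585 and 547 in the same order, a log2 difference of 0.13. Setdb1, which methylates histone H3 to silence retroelements, read 55.5 in atopic diathesis and 52.2 in control microglia. Setd8, now named Kmt5a and a methyltransferase of histone H4, read 675 and 774 in the same order, and Setd7 477 and 367. Setd5 was at -0.17 and Setd3, an actin histidine methyltransferase, at -0.85, and a second Setd3 probe was above background in control microglia only (23.5 in atopic diathesis, 159 in control). Setd4, Setd6 and Setdb2 were on neither array.

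The PRC2 genes, whose complex deposits repressive methylation on histone H3, were found on both sides. Ezh1, the catalytic subunit typical of non-dividing cells, averaged 114 in atopic diathesis and 244 in control microglia, 2.10-fold lower. Its measured probes gave log2 differences of -1.48 and -0.65 at sites 250 bases apart, and the value came inside 2-fold under normexp (-0.66), with the brightest probe (-0.66), with a signal of at least 100 (-0.62) and scaled by the 75th percentile of detected probes (-0.99). Eed, the subunit that binds the methyl mark, had 42.0 and 81.6 in the same order (-0.92), and passed 2-fold in 4 of 8 alternatives, with -1.42 at the lowest. Suz12, the structural subunit, was seen in atopic diathesis microglia only, at 110.0 against 12.04 in control microglia, at least 5.69-fold higher. Ezh2, the catalytic subunit typical of dividing cells, was on neither array.

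Lysine demethylases contained the lowest member. Kdm5c, an X-linked enzyme that removes methyl groups from histone H3 at promoters and enhancers, had 115 in atopic diathesis and 721 in control microglia, 6.15-fold lower, and its second probe was on neither array. Kdm6b, also called JMJD3, an inducible eraser of Polycomb methylation known from macrophage activation, had 551 in atopic diathesis and 2060 in control microglia, 3.65-fold lower. Both had signals above 100 on each array and stayed at least 2-fold lower in 9 of 9 alternatives. Each value rests on 1 measured probe, so several of these alternatives reuse the same signals and shift only the centre. Kdm3a, a hypoxia-inducible eraser of repressive methylation, had 235 in atopic diathesis and 66.3 in control microglia, 3.62-fold higher.

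Kdm2a, a demethylase that binds unmethylated CpG islands, averaged 0.80 over probes that pointed in opposite directions. One probe read 28.2 in atopic diathesis and 101 in control microglia, a log2 difference of -1.81. The other, 1967 bases further along the same transcript, read 375 in atopic diathesis and 36.2 in control microglia, a log2 difference of 3.40. Its paralogue Kdm2b, a subunit of a variant PRC1 complex, had 3 measured probes at -0.14, -0.03 and 0.42.

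In the Kdm4 and Kdm5 families the members seen on 1 array fell on both sides. Kdm4a was seen in atopic diathesis microglia only, at 78.0 against 4.52 in control microglia (at least 4.03-fold higher), as was Kdm4b at 39.6 against 11.6 (at least 2.05-fold). Kdm4c was seen in control microglia only, with 17.2 in atopic diathesis and 56.6 in control microglia (at least 2.78-fold lower). With normexp these bounds were 1.74-fold for Kdm4a, 1.32-fold for Kdm4b and 1.51-fold for Kdm4c. Kdm1b and Kdm5a were seen in atopic diathesis microglia only, with bounds under 2-fold (1.63 and 1.31). Kdm1a, the founding lysine demethylase, and Kdm6a, the X-linked relative of Kdm6b, were on neither array, as were Kdm3b, Kdm4d and Kdm5b.

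Among the Chd remodellers, Chd8, which binds methylated histones and beta-catenin, had 367 in atopic diathesis and 71.0 in control microglia, 5.28-fold higher. Chd4, the ATPase of the NuRD repressor complex, had 1832 in atopic diathesis and 3990 in control microglia, 2.13-fold lower on one of the brightest member probes. It was past 2-fold in 8 of 9 alternatives, the exception being the deposited series table at -0.86. Chd2 read 2674 and 1943 in the same order (0.49) and Chd9 55.5 and 51.3 (0.15). Chd3, the paralogue of Chd4 in NuRD, was seen in control microglia only, with 4.18 in atopic diathesis and 149.8 in control microglia, at least 7.36-fold lower. Chd6 was seen in atopic diathesis microglia only, at 122 against 3.91 in control microglia (at least 6.33-fold higher), although its other probes were on neither array, and Chd7 likewise with a bound of 1.29. Chd1, Chd1l and Chd5 were on neither array.

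**Figure D3:**
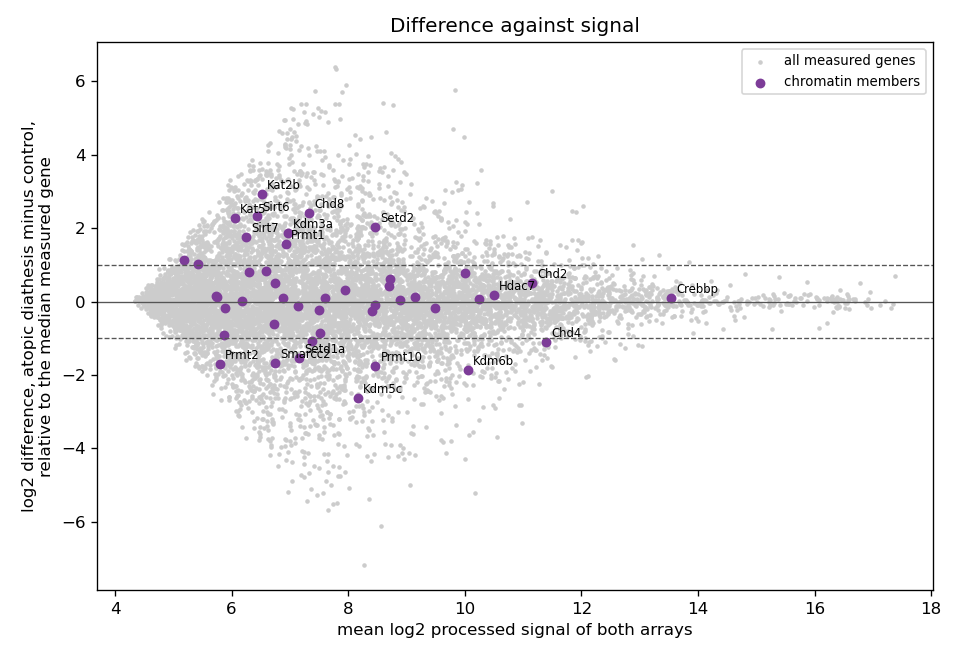
Log2 difference, atopic diathesis minus control (vertical axis), against the mean log2 signal of both arrays (horizontal axis) for all measured genes (grey) and the members (purple). Dashed lines mark 2-fold, and the members lie inside the cloud of all genes, with the bright Crebbp and Hdac7 close to 0.

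Of the 14 Smarc names, many of them subunits of the BAF and ISWI remodelling complexes, 9 were measured and 6 of these stayed within 2-fold. Past 2-fold were 33.3% of the measured, near the 32.9% of all measured genes. Another 3 were seen in atopic diathesis microglia only, and 2 were on neither array. Smarca5, the ISWI ATPase, had 1330.1 in atopic diathesis and 790.0 in control microglia (0.78). Smarca2, known as BRM and one of the alternative BAF ATPases, had 271 and 223 in the same order (0.31), and the core subunit Smarcc1 1236 and 1199 (0.08). Smarcd2 was at -0.11 and Smarcd3 at 0.00. Smarcc2, the paralogue of Smarcc1, was lower, with 59.2 in atopic diathesis and 194 in control microglia, 3.20-fold, and just inside 2-fold with normexp (-0.97).

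Smarca4, known as BRG1 and the other BAF ATPase, was seen in atopic diathesis microglia only, at 39.1 against 6.41 in control microglia, at least 2.02-fold higher. The DNA-dependent ATPase gene Smarcad1 was seen there only as well, at 86.5 against 4.58 (at least 4.47-fold higher). With normexp the bounds were 1.31-fold for Smarca4 and 1.82-fold for Smarcad1. Smarcb1, a core BAF subunit, had 24.2 in atopic diathesis and 18.2 in control microglia, which gives a bound of 1.25. Smarca1 and Smarcd1 were on neither array.

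Smarce1, the HMG-box subunit of BAF, averaged 0.61, over a probe at 339 in atopic diathesis and 468 in control microglia (-0.43) and one 912 bases further along the transcript at 785 and 254 (1.66). Smarcal1, an annealing helicase, counted as 2.20-fold higher from the probe measured on both arrays, at 53.2 in atopic diathesis and 24.8 in control microglia. A second Smarcal1 probe passed in atopic diathesis microglia only (29.5 against 10.5 in control) and another in control microglia only (10.8 in atopic diathesis and 108 in control), so the gene's direction depends on the probe and its difference was -0.39 when all entered. It was past 2-fold in 3 of 8 alternatives, and inside it with normexp (0.40), quantile normalization (0.63), the 75th percentile of all probes (0.64) and the deposited series table (0.80). The pseudogene Smarca5-ps averaged 60.9 in atopic diathesis and 30.4 in control microglia, 2.05-fold higher, from one probe at 117 and 30.8 in that order and another at 31.6 and 30.03. It was past 2-fold in 4 of 8 alternatives, and inside it with normexp (0.48), the 75th percentile of all probes (0.54), quantile normalization (0.57) and the deposited series table (0.74). The pseudogene Kat2b-ps was on neither array. Without pseudogenes the members at least 2-fold higher numbered 9 of 44.

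**Figure D4:**
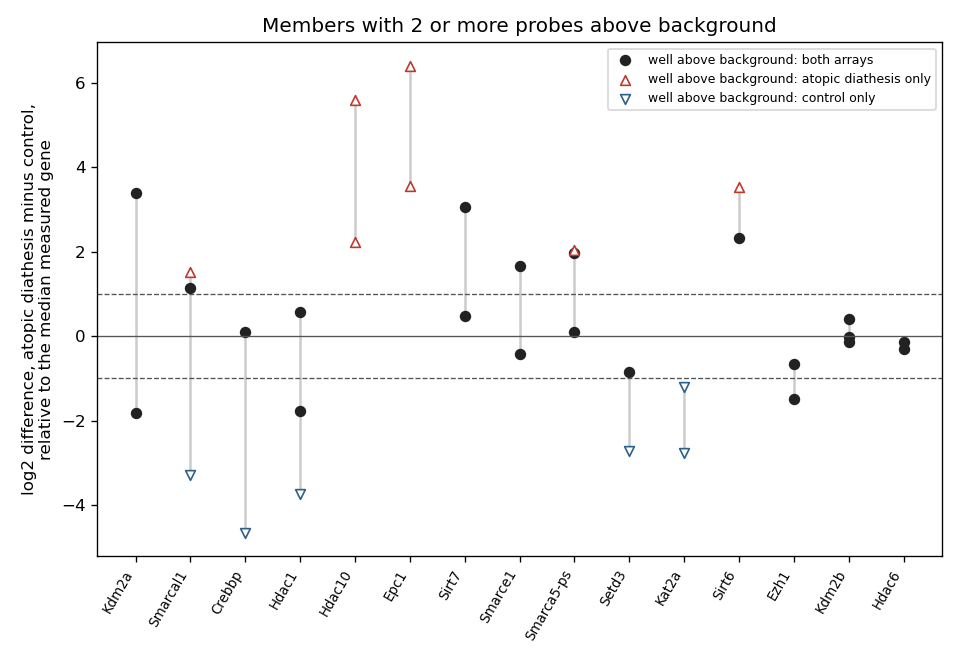
Log2 difference, atopic diathesis minus control (vertical axis), of each probe above background for the 15 members with at least 2 such probes, ordered by the gap between probes. Filled circles were above background on both arrays, upward triangles in atopic diathesis only and downward triangles in control only (their differences involve a spot not well above background). Kdm2a, Smarcal1, Crebbp and Hdac1 show the widest gaps across 0.

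Disagreement between probes of one gene was common. Of the 8 members with at least 2 probes measured on both arrays, 4 had all of them on one side of the median gene, against 62.5% of such genes on the whole array. Of the 15 members with at least 2 probes above background on any array, 6 had probes of opposite sign (40%, against 36.9% of 2754 such gene names). Of these, 4 had probes beyond the spot interval on both sides (26.7%, against 20.4%), namely Kdm2a, Smarcal1, Hdac1 and Smarce1, while Crebbp and Kdm2b did not. For 37 of the 45 measured members a single probe gave the value. Of these, only Crebbp, Setd3, Sirt6 and Smarcal1 had another probe above background on any array, and for the rest this check is lacking. Chd2, Ezh1, Kdm4a, Prmt6, Setd1b, Setd8, Sirt7, Smarca4, Smarcc1 and Smarcd2 also had a probe or probes on neither array, besides the members for which this is given above. No member probe shared a run of 30 bases with a probe of another gene name.

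The 10 higher members had signals of 53.2 to 701 in atopic diathesis microglia and 24.8 to 177 in control microglia, and 9 of 10 had a control signal under 100. The lower members had 30.5 to 1832 in atopic diathesis and 101 to 3990 in control microglia, and 3 of 8 had an atopic diathesis signal under 100. With normexp, log2 differences were 1.79 for Chd8, 1.40 for Sirt6, 1.28 for Kdm3a, 1.18 for Kat5 and 1.12 for Sirt7. With a signal of at least 100 asked of each probe on both arrays, 24 members were left, of which 1, Setd2, was higher and 4, Kdm5c, Kdm6b, Prmt10 and Chd4, were lower. Over all genes that filter gave 12.1% higher and 13.1% lower. Sorted into quintiles of mean signal, dimmest first, 20.2%, 46%, 46.5%, 36.7% and 15.3% of all measured genes were past 2-fold. Of the members in these quintiles, 3 of 7, 7 of 13, 3 of 8, 3 of 10 and 2 of 7 were, the last being Kdm6b and Chd4.

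**Figure D5:**
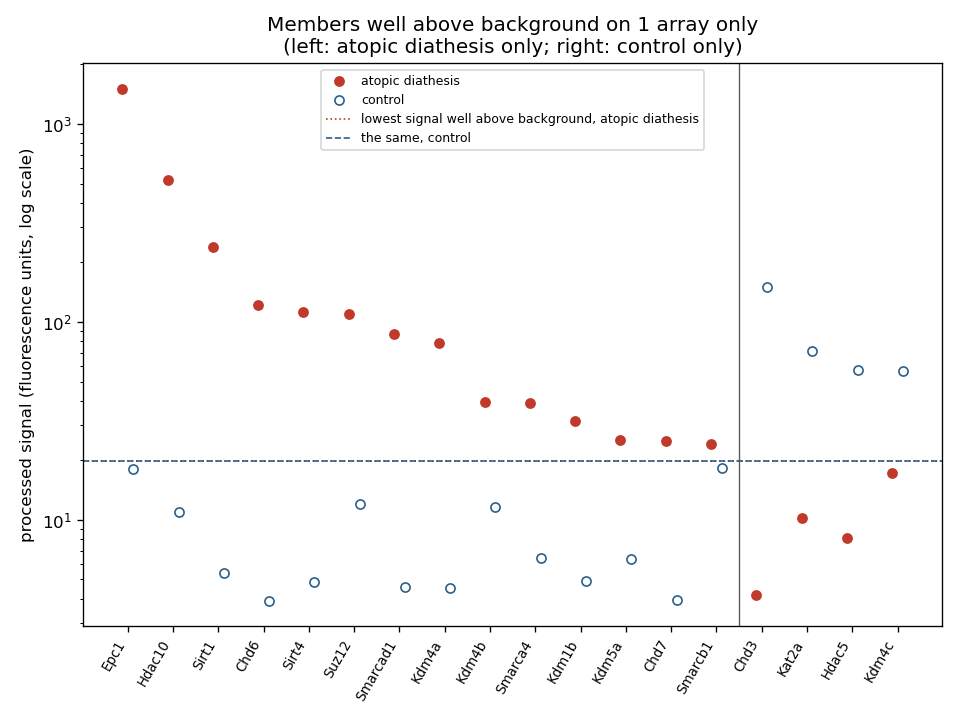
Processed signal (vertical axis, log scale, fluorescence units) of the 18 members well above background on 1 array only, at the brightest probe, with atopic diathesis filled and control open. The dotted and dashed lines, which nearly coincide, mark the lowest signal well above background on each array (19.9 in atopic diathesis, 19.8 in control), and Epc1, Hdac10 and Sirt1 stand highest above them.

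Detection on 1 array only leaned to the atopic diathesis array. It held 14 of the 18 such members (77.8%), where 66.0% of all such genes on the array were seen in atopic diathesis only. As a share of all names this was 16.1% of members seen in atopic diathesis only, against 8.06% of all gene names, and 4.60% seen in control only, against 4.15%. Such shares also rest on how many names were seen at all: 27.6% of members were on neither array, against 61.1% of all gene names. Among the 14, the bound was 2-fold or more for 10, where it was for 59.2% of all genes seen in atopic diathesis only. Among the 4 seen in control only it was for 4, where it was for 51.1% of all such genes. Of the 14 bounds of 2-fold or more on either side, 7 stayed so with normexp, among them those of Chd3 (2.67), Chd6 (2.55) and Suz12 (2.14). The atopic diathesis array had more probes above background in general, 27.6%, against 24.1% of probes on the control array. The 24 members on neither array had signals of at most 25.4 in atopic diathesis and 13.4 in control microglia, and whether they are expressed was not detectable at these signals.

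Other chromatin genes were taken from a list of 108 names, of which 50 were measured, 12 of them at least 2-fold higher and 10 lower (24% and 20%, against 17.3% and 15.6% of all measured genes), with a median of -0.07. The highest were Mbd3, a NuRD subunit, with 611 in atopic diathesis and 55.8 in control microglia (11.2-fold higher), and Rybp, a PRC1 subunit, with 252 and 40.5 in the same order (6.37-fold higher). The lowest were Baz1b, a partner of the ISWI ATPase Smarca5, with 64.7 in atopic diathesis and 796 in control microglia (12.04-fold lower), and Ss18, a BAF subunit, with 203 and 1109 (5.33-fold lower). Mbd3, Rybp and Baz1b rest on 1 probe each, with the dimmer signal under 100. The related genes were not followed through the alternatives. By complex, PRC1 had 3 of 6 measured genes higher and 1 lower, the deacetylase corepressor complexes 2 higher and 4 lower of 11, the BAF subunits without a Smarc name 1 higher and 1 lower of 6, the COMPASS list 2 higher and 0 lower of 5, and the other lysine methyltransferases 2 higher and 0 lower of 6. The INO80, SRCAP and TIP60 list and the bromodomain readers each had 1 higher and 2 lower of 7, and of the DNA methylation list 2 genes were measured, both within 2-fold.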

How the data were processed

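Total RNA of 1 atopic diathesis and 1 control sample of sorted microglia was labelled with Cy3, per the labels' protocols, and hybridised to 1-colour Agilent mouse arrays. The deposited scanner files hold fluorescence intensity per spot, background-subtracted by Feature Extraction 10.7.1.1, per the file headers (version 9.5.1.1 in the submitters' processing notes). The deposited series table, also intensity, served as an alternative. Its ranks match the scanner values, and its columns share one distribution (median 6.64).

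Control spots and outlier-flagged spots (122 in atopic diathesis, 136 in control) were left out, none was saturated, log2 processed signals of a probe's spots were averaged, and gene values are means over probes well above background on both arrays, centred on the median measured gene. The 75th percentile over all probes, the usual scale, fell among dim probes (28.6 and 20.7) and was an alternative, as was normexp (limma 3.58.1, offset 50). A bound divides the brighter signal by whichever is larger on the other array: the dimmest signal passing as well above background or the probe's reading there. Some probes read above that dimmest signal without passing, such as a Kdm5b probe at 25.4 in atopic diathesis. It is thus no strict detection limit, and the bounds are approximate. File names of genes were kept; 82 of 87 members matched RefSeq by accession.

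Members and lists were chosen with earlier results of these data known. Named were all members past 2-fold, each with a bound of at least 2-fold, those with probes past 2-fold in opposite directions, core enzymes, the brightest of each class, and at most 2 related genes a direction. Others are named to account for every member.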

Additional observations from a re-analysis of the deposited data

How the results depend on the processing

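Counts of members at least 2-fold higher and lower, 10 and 8, stayed within 1.5 times under scaling by the 75th percentile of detected or of all probes, quantile normalization, the deposited series table, the brightest probe, kept outlier spots and, chosen after seeing the data, without pseudogenes. Under normexp 5 were lower (7 higher), where 10.5% of all measured genes were lower and 10.9% higher. Letting in probes above background on just 1 of the arrays gave 22 higher and 16 lower of 63 (29.0% and 21.8% of all genes), and with a signal of at least 100 on both arrays 1 and 4 of 24, since these filters change which genes enter. The median member, 0.10, was -0.40 under the 75th percentile of all probes, where the median of all genes was -0.50, and between -0.01 and 0.21 otherwise. Bounds of at least 2-fold numbered 14 of 18, and 7 under normexp. Of 384 values of single members under alternatives, 304 moved by less than the spot interval, and 79 by more. Among the 79, 45 came from the 75th percentile of all probes, which shifts every member alike, and 16 from normexp. Of the 304, 45 came from the 75th percentile of detected probes, which also shifts every member alike, by 0.08. Another 45 came from kept outlier spots, which left values nearly unchanged. The brightest probe gave 39, and for members with 1 measured probe it changes only the centre. The 304 are thus no count of separate checks, nor are the alternatives counted for single members. The 1 value outside the 304 and the 79 is that of Smarcal1, past 2-fold higher in the reported setting and at -0.39 when probes detected on a single array entered. In total, 36 values of 16 members had the other sign, the other members starting inside 2-fold; of these Crebbp alone passed 2-fold on the other side, at -2.46. Over all genes, higher and lower numbered 1594 and 1435, and under the 75th percentile of all probes 987 and 2499. No paired analysis was possible because each group has 1 array, and no array could be left out. The number of arrays limits the precision, and signals near 20 limit what can be detected.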
